A study of Mus musculus with 15 samples.

Results

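The cytochrome P450 enzymes of families 1 to 3 are haem proteins of the endoplasmic reticulum that oxidise drugs, pollutants, steroids, retinoids, bile acids and fatty acids. They were taken as every gene of the deposited count table whose symbol is Cyp1, Cyp2 or Cyp3 followed by 1 letter and a number, which gave 58 of 26264 genes: 3 of family 1, 48 of family 2 and 7 of family 3. The rule used symbols only and no measured value, but it was chosen with earlier results of these data known. Of the 58, 41 had enough counts to be tested, 33 of them in family 2, and 6 had no count in any library.

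Polyadenylated RNA of mouse liver was sequenced in 15 libraries, with 3 in each of 5 groups. The mice modelled steatotic liver disease (MASLD) on a high-fat diet. HFD-337 is the group given Gc337, the antisense agent against the kinase gene Stk25, as far as the number in its label goes. HFD-338 carries a number that the labels do not explain. HFD-Res is the group given resmetirom, a thyroid hormone receptor beta agonist. HFD-NS is the group on the same diet against which the treated groups are set, and SD-NS carries another diet label. SD and NS are not spelled out, and no strain, sex, age, dose, duration or control oligonucleotide is labelled. The labels do not say that the libraries of a group came from separate animals on separate days, so the p-values measure the spread between these samples only.

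In liver, most of these enzymes are made by hepatocytes, many of them mainly around the central vein. Their transcription is set by the xenobiotic receptors CAR (Nr1i3), PXR (Nr1i2) and AhR (Ahr), and by the sex-dependent pattern of growth hormone secretion, which makes several rodent members far more abundant in one sex. They take electrons from the reductase Por and from cytochrome b5, and they need haem, whose synthesis Alas1 limits.

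Total counts per library ran from 3873903 to 9797743. Levels are CPM, each library's counts scaled to a common depth, after TMM scaling, a correction for differences in composition between libraries. Levels of different genes are compared only as TPM, a like scale that also divides by gene length. Changes are fitted log2 fold changes, called log2 changes. A gene was called at a Benjamini-Hochberg adjusted p under 0.05 in edgeR's quasi-likelihood test over all 13189 genes tested. Statements that groups did not overlap describe the 3 libraries on each side and add no support to a call. The share of all genes without overlap is not given. Uncalled members could lack overlap too, such as Cyp2d26 in HFD-Res against HFD-NS. Stk25 was at 19.1, 18.8 and 14.6 CPM in HFD-337, 22, 21.9 and 20.5 CPM in HFD-338, 46.9, 37.7 and 41.3 CPM in HFD-Res, 48.6, 43.7 and 47.3 CPM in HFD-NS and 50.6, 53.3 and 47.8 CPM in SD-NS, so both numbered groups were below every other library. Summed markers of liver parenchyma were at 85706 to 96499 CPM in HFD-Res, the lowest of the 5 groups, and 104220.0 to 152093 CPM in HFD-337, the group with the highest library. The members together took 1.87% ± 0.264 in HFD-337, 2.05% ± 0.258 in HFD-338, 1.81% ± 0.125 in HFD-Res, 2.42% ± 0.148 in HFD-NS and 2.26% ± 0.108 in SD-NS of the counts (SD, n = 3 each). In bulk liver, fewer cells of a type and less RNA per cell cannot be told apart.

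Several members are close copies in the same gene cluster, and their promoters show how alike copies can be while their RNA levels differ. The stretches of 250 bases before the start of transcription are printed for 3 such sets, because the results below turn on their members. They are RefSeq sequences of build GRCm38.p6, each 5′ to 3′ on the gene's own strand: Cyp2a4 chr7:26306942-26307191 (+ strand), Cyp2a5 chr7:26835089-26835338 (+ strand), Cyp2b9 chr7:26173159-26173408 (+ strand), Cyp2b13 chr7:26061245-26061494 (+ strand), Cyp3a16 chr5:145469724-145469973 (- strand), Cyp3a44 chr5:145805875-145806124 (- strand) and Cyp3a11 chr5:145879855-145880104 (- strand). Capitals mark the letters ATCAAT, the core of Onecut factors, AGGTCA, a half-site of nuclear receptors, and TATAAA, the TATA box, each searched on both strands.
Cyp2a4: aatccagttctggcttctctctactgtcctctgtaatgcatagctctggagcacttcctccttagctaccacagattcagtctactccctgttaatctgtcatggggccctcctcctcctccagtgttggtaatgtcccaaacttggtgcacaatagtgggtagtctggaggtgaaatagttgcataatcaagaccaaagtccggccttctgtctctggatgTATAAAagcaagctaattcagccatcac
Cyp2a5: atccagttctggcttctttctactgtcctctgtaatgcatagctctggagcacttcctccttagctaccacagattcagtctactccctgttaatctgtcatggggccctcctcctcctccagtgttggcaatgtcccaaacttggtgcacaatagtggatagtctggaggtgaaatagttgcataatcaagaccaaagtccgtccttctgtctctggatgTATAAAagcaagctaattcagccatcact
Cyp2b9: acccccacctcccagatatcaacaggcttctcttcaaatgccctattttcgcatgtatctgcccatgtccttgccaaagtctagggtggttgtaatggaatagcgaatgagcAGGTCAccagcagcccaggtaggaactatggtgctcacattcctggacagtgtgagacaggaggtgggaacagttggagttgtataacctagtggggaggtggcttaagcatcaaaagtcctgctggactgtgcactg
Cyp2b13: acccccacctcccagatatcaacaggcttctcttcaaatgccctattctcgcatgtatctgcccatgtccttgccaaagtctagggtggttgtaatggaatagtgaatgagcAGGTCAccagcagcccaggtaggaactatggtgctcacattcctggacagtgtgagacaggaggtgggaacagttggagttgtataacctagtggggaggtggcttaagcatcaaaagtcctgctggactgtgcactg
Cyp3a16: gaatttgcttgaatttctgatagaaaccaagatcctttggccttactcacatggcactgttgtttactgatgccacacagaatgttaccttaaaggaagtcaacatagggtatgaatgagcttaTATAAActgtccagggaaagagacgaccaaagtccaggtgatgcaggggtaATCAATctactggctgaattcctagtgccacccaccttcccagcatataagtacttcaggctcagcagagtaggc
Cyp3a44: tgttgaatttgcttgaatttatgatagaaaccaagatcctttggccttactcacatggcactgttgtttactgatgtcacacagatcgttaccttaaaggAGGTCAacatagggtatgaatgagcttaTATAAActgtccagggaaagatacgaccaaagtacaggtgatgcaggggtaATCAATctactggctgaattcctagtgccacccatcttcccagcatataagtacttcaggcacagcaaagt
Cyp3a11: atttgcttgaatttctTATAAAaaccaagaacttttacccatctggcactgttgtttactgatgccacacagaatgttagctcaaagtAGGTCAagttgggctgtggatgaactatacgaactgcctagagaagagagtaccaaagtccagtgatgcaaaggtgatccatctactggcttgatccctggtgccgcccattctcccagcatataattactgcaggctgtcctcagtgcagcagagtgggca

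Over these windows, Cyp2a4 and Cyp2a5 were identical at 97.6% of aligned positions, Cyp2b9 and Cyp2b13 at 99.2% and Cyp3a16 and Cyp3a44 at 92.9%. Cyp3a11 was less like the other Cyp3a promoters, at 76.6% against Cyp3a16 and 72.5% against Cyp3a44. The letters ATCAAT stood in the windows of Cyp3a16 and Cyp3a44 and not in that of Cyp3a11. Entries were found for 50 of the 58 members, with 53 windows. ATCAAT was in 17% of the member windows and 6.72% of all 32851 windows of the same length, and AGGTCA in 30.2% and 14%. TATAAA was in 43.4% and 12.4%, the AhR core GCGTG in 17% and 28.2%, and the STAT5 element TTCNNNGAA in 3.77% and 7.02%. A match describes letters only and is not a site. Members of 1 cluster share their sequence by descent, so these shares do not rest on independent windows.

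Close copies also share reads. Of the stretches of 100 bases in the longest transcript, 44.1% in Cyp2c40, 36.3% in Cyp2c69, 23.7% in Cyp2c67, 19.8% in Cyp2c68, 14.8% in Cyp2d10, 14.4% in Cyp2a5 and 11.2% in Cyp2a4 also occurred in another gene. The share was 9.86% in Cyp2d9, 9.29% in Cyp2b13, 1.18% in Cyp2b9, 5.37% in Cyp3a44 and 0.123% in Cyp3a16. Levels of the first set of genes are therefore less certain than those of Cyp3a16 or Cyp2b9. The counting left out reads that map to several places, so a shared stretch can lower a gene's count.

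Cyp2e1, the ethanol- and acetaminophen-oxidising enzyme of pericentral hepatocytes, had the highest level per length in every group, with 8197 ± 1836 TPM in HFD-337, 9774 ± 1271 TPM in HFD-338, 6693 ± 694 TPM in HFD-Res, 14453 ± 1123 TPM in HFD-NS and 8252 ± 335 TPM in SD-NS (SD, n = 3 each). The next subfamilies differed by group. Cyp3a, whose main liver member Cyp3a11 is the classic PXR target, summed to 1669 ± 672 TPM in HFD-337, 3598 ± 912 TPM in HFD-338, 1621 ± 332 TPM in HFD-Res, 2608 ± 467 TPM in HFD-NS and 7580.0 ± 951 TPM in SD-NS. Cyp2c, a large subfamily that oxidises arachidonic acid, retinoids and steroids, summed to 2793 ± 459 TPM in HFD-337, 2159 ± 182 TPM in HFD-338, 3226 ± 125 TPM in HFD-Res, 3076 ± 205 TPM in HFD-NS and 3269 ± 389.7 TPM in SD-NS. Cyp2a summed to 1465 ± 235 TPM in HFD-337, 2153 ± 249 TPM in HFD-338, 3814 ± 472 TPM in HFD-Res, 1319 ± 297 TPM in HFD-NS and 733 ± 50.7 TPM in SD-NS, and Cyp2d to 2325 ± 153 TPM in HFD-337, 2272 ± 228 TPM in HFD-338, 1451 ± 52.3 TPM in HFD-Res, 2503 ± 147 TPM in HFD-NS and 2577 ± 221 TPM in SD-NS. Cyp2a was thus highest in HFD-Res, where Cyp2d was lowest, and Cyp3a was highest in SD-NS.

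**Figure D1:**
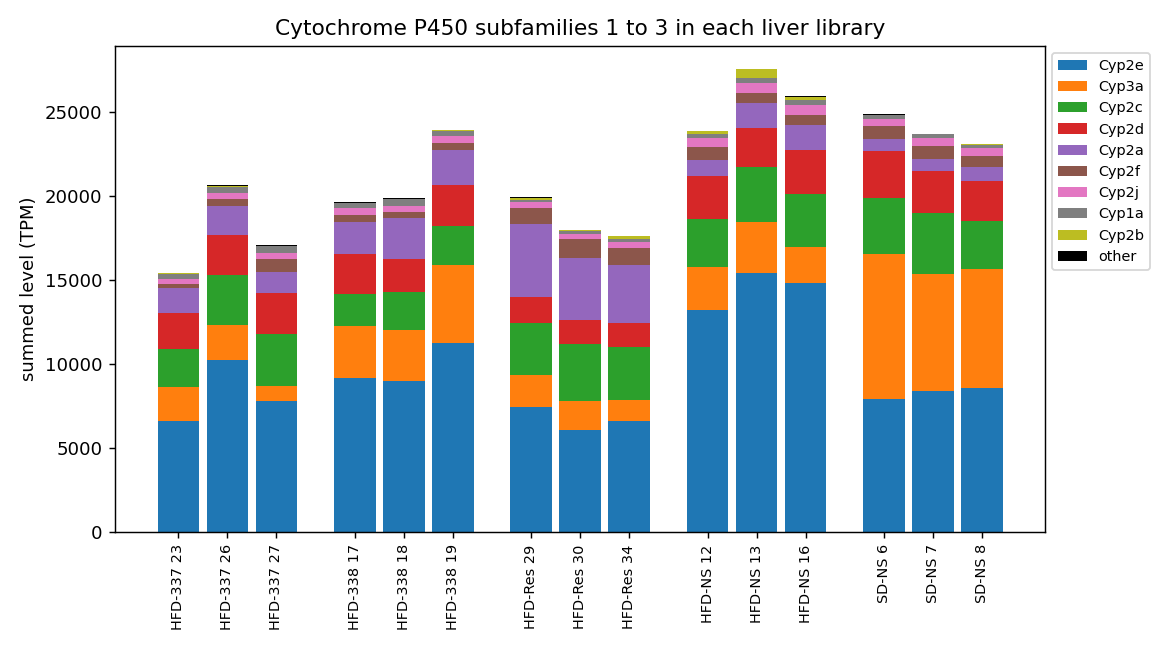
Summed TPM of the members (bar height, from 0) in each library, with replicate numbers below the bars, stacked by subfamily in colour, for all 5 groups with 3 libraries each. Cyp2e takes the largest part of each HFD bar, the Cyp2a part is widest in HFD-Res and the Cyp3a part is widest in SD-NS.

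The widest rises in HFD-Res livers were those of members known as female-biased in mice. They rose by up to 8.21 on the log2 scale over HFD-NS, and male-biased Cyp2d9 and Cyp2u1 fell, as did Cyp3a11. In all, 24 of 41 members were called (58.5%), where 13% of all genes were, with 11 rises (background 6.22%) and 13 falls (background 6.74%). Among them, 17 members (41.5%) moved at least 2-fold, against 4.41% of all genes, and the median absolute log2 change was 0.87 over the members and 0.22 over all genes. Cyp2b13, Cyp3a16 and Cyp3a44 had enough counts to be tested only through the HFD-Res libraries, so whether they were tested depended on that group. The share moving at least 2-fold and the median include these genes and were not recomputed without them, so neither lends support. Of the other 38 members, 9 rose and 13 fell. Among the 13004 genes left by the same exclusion, 6.01% rose and 6.77% fell.

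Cyp3a16, a female-biased member of the Cyp3a cluster (chr5:145373119-145406533, mm39), was at 374, 313 and 111 CPM in HFD-Res, against 0.234, 0.621 and 1.69 CPM in HFD-NS. Every HFD-Res library stood far above every HFD-NS library (log2 change 8.21, SE 0.583, adjusted p = 4.64e-06; 9.23 without HFD-NS replicate 16). Its neighbour Cyp3a44 (chr5:145710793-145742684, mm39), also female-biased, was at 97.8, 58 and 32.7 CPM in HFD-Res, against 0.35, 0.124 and 0.316 CPM in HFD-NS (log2 change 7.77, SE 0.575, adjusted p = 1.35e-06). The HFD-NS libraries held next to none of either RNA. Cyp3a41a, which the symbol pattern leaves out because its name ends in a letter and which is another female-biased gene of the cluster, was at 16.7, 12 and 3.2 CPM in HFD-Res, against 0.117, 0 and 0.105 CPM in HFD-NS (log2 change 6.77, SE 0.757, adjusted p = 6.94e-06). Its HFD-NS total was 2 counts, and the ratio of summed levels was 125 (95% exact interval 33.9 to 1039; 152 against 2 counts). Cyp3a11 itself (chr5:145791417-145816664, mm39) went the other way, at 338, 267 and 313 CPM in HFD-Res, against 1939, 1890.1 and 1328 CPM in HFD-NS (log2 change -2.49, SE 0.341, adjusted p = 0.000431). Cyp3a13, Cyp3a25 and Cyp3a59 were not called, with log2 changes of -0.42, 0.00 and 1.19.

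All 4 tested Cyp2a members rose in HFD-Res. Cyp2a4, a female-biased steroid hydroxylase (chr7:26006617-26014513, mm39), was at 632, 481 and 471 CPM in HFD-Res, against 3.97, 11.9 and 6.11 CPM in HFD-NS (log2 change 6.18, SE 0.433, adjusted p = 3.7e-06). Its near-copy Cyp2a5, which oxidises coumarin and nicotine, was already abundant and rose less, at 1484, 1068 and 1094 CPM in HFD-Res, against 259.8, 586 and 639 CPM in HFD-NS (log2 change 1.30, SE 0.352, adjusted p = 0.0336). That call was lost with no filter on low counts, in a fit of the 2 groups alone or without HFD-Res replicate 29, 30 or 34 or HFD-NS replicate 13 (adjusted p = 0.057 to 0.107). Cyp2a12, which hydroxylates bile acids, was at 1446, 1297 and 1378 CPM in HFD-Res, against 566, 589 and 633 CPM in HFD-NS (log2 change 1.21, SE 0.112, adjusted p = 4.5e-07). Cyp2a22 was at 365, 277 and 179 CPM in HFD-Res, against 30.8, 86 and 54.9 CPM in HFD-NS, a rise (log2 change 2.26, SE 0.621, adjusted p = 0.0386) that was lost with no filter on low counts, in a fit of the 2 groups alone or without HFD-Res replicate 29, 30 or 34 or HFD-NS replicate 12, 13 or 16 (adjusted p = 0.0534 to 0.118). The groups did not overlap for any of the 4. That was also so for uncalled members such as Cyp2b9 and Cyp2c29, so it adds no support to these calls.

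In Cyp2c, 5 of 13 tested members rose and 3 fell. Female-biased Cyp2c69 was at 34.3, 50.4 and 31.2 CPM in HFD-Res, against 0.817, 2.48 and 2.11 CPM in HFD-NS (log2 change 4.40, SE 0.451, adjusted p = 1.7e-05), and Cyp2c40, with which it shares many stretches, at 55, 61.2 and 42.9 CPM in HFD-Res, against 2.57, 4.35 and 5.38 CPM in HFD-NS (log2 change 3.67, SE 0.305, adjusted p = 1.26e-06). Cyp2c39, a female-biased member that acts on retinoic acid, was at 61.4, 50.8 and 40.4 CPM in HFD-Res, against 14.5, 23.3 and 17.5 CPM in HFD-NS (log2 change 1.46, SE 0.317, adjusted p = 0.00856). Each of these groups of HFD-Res libraries lay wholly above HFD-NS. Cyp2c70, which makes the muricholic acids of mouse bile, was at 522, 664 and 734 CPM in HFD-Res, against 188, 173 and 206 CPM in HFD-NS (log2 change 1.76, SE 0.447, adjusted p = 0.026), a call lost without HFD-Res replicate 30 or 34 or HFD-NS replicate 12, 13 or 16 (adjusted p = 0.0647 to 0.0902). Cyp2c68 rose by 0.81 (adjusted p = 0.000818). Cyp2c23, an arachidonic acid epoxygenase, had the widest fall in this subfamily, at 19.7, 15.6 and 17.7 CPM in HFD-Res, against 147, 141 and 189 CPM in HFD-NS (log2 change -3.17, SE 0.172, adjusted p = 6.32e-10). Cyp2c54 (log2 change -1.32, adjusted p = 0.041) was lost with no filter on low counts, in a fit of the 2 groups alone or without HFD-Res replicate 29 or 30 or HFD-NS replicate 12 or 16 (adjusted p = 0.065 to 0.144), and Cyp2c67 (log2 change -0.98, adjusted p = 0.0349) was lost with no filter on low counts or without HFD-Res replicate 29 or 30 or HFD-NS replicate 12 or 16 (adjusted p = 0.0674 to 0.115). Cyp2c29, Cyp2c37, Cyp2c38, Cyp2c50 and Cyp2c55 were not called, with log2 changes of -0.78, -0.25, 0.79, 0.04 and -0.77.

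Among members that are more abundant in male mice, Cyp2d9, a testosterone hydroxylase (chr15:82336578-82341028, mm39), was at 37.7, 35.7 and 66.7 CPM in HFD-Res, against 628, 307 and 582 CPM in HFD-NS (log2 change -3.42, SE 0.445, adjusted p = 0.000431). Cyp2u1, a fatty acid hydroxylase, was at 0.428, 2.07 and 2.62 CPM in HFD-Res, against 14.1, 7.95 and 13.2 CPM in HFD-NS (log2 change -2.70, SE 0.447, adjusted p = 0.00063). All HFD-Res libraries were below all HFD-NS libraries for both. Cyp2e1 was at 6835, 5257 and 6162 CPM in HFD-Res, against 12104, 13388 and 13737 CPM in HFD-NS (log2 change -1.10, SE 0.165, adjusted p = 0.000113), and Cyp1a2, an AhR target that oxidises caffeine, at 133, 126 and 186 CPM in HFD-Res, against 245, 268 and 304 CPM in HFD-NS (log2 change -0.87, SE 0.163, adjusted p = 0.00147). The 3 tested Cyp2j members, of which Cyp2j5 is an arachidonic acid epoxygenase, fell, with log2 changes of -0.76 (Cyp2j5, adjusted p = 0.000551), -0.68 (Cyp2j6, adjusted p = 0.000917) and -1.24 (Cyp2j9, adjusted p = 0.00278). Cyp2d22 (log2 change -0.75, adjusted p = 0.00112) and Cyp2d10 (log2 change -0.59, adjusted p = 0.00243) also fell. Cyp2f2, the naphthalene-activating enzyme of periportal cells, was at 959, 1051 and 1016 CPM in HFD-Res, against 702, 539 and 600.2 CPM in HFD-NS, with no overlap between the groups, and did not pass (log2 change 0.72, adjusted p = 0.149). The vitamin D 25-hydroxylase gene Cyp2r1 did not pass either (log2 change 0.63, adjusted p = 0.0667), nor did Cyp1b1 (log2 change 0.76, adjusted p = 0.261) or the CAR target Cyp2b10 (log2 change -0.19, adjusted p = 0.836).

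Of the genes listed as female-biased (Cyp2a4, Cyp2b9, Cyp2b13, Cyp2c39, Cyp2c40, Cyp2c69, Cyp3a16, Cyp3a41a, Cyp3a41b and Cyp3a44), 7 rose and 0 fell of 9 tested by edgeR, where 6.22% of all genes rose. DESeq2 and limma-voom gave the same counts, and no member of the list fell at an unadjusted p under 0.05. Cyp3a16, Cyp3a44, Cyp3a41a and Cyp2b13 passed the count filter only through HFD-Res libraries, so the count describes the list and lends no support to its direction. Cyp2b9 and Cyp2b13 were those that did not pass (-1.47, adjusted p = 0.252, and 0.25, adjusted p = 0.9). Of the 7 genes listed as male-biased (Cyp2d9, Cyp2u1, Cyp7b1, Cyp4a12a, Mup20, Elovl3 and Hsd3b5), of which Cyp7b1, Elovl3 and Hsd3b5 did not pass, 0 rose and 4 fell by edgeR, where 6.74% of all genes fell. No rise was found at an unadjusted p under 0.05, by DESeq2 or by limma-voom. Among these, Cyp4a12a was at 2.57, 3.91 and 5.67 CPM in HFD-Res, against 102, 75.6 and 83.2 CPM in HFD-NS (log2 change -4.36, adjusted p = 0.00356), and Mup20, a urinary protein gene, at 772, 922 and 969 CPM in HFD-Res, against 7880.3, 2291 and 3587 CPM in HFD-NS (log2 change -2.37, adjusted p = 0.0115; -1.73 without HFD-NS replicate 12). The Cyp4a12a call was lost with limma-voom (adjusted p = 0.0554). The Mup20 call was lost in a fit of the 2 groups alone (adjusted p = 0.0521). The labels give no sex. The summed CPM of 4 genes of the Y chromosome (Ddx3y, Kdm5d, Uty and Eif2s3y) ran from 239 to 259 CPM in HFD-Res and 226 to 261 CPM in HFD-NS, and Xist, the RNA of the inactive X chromosome, reached at most 0.436 CPM in HFD-Res and 0.35 CPM in HFD-NS.

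**Figure D2:**
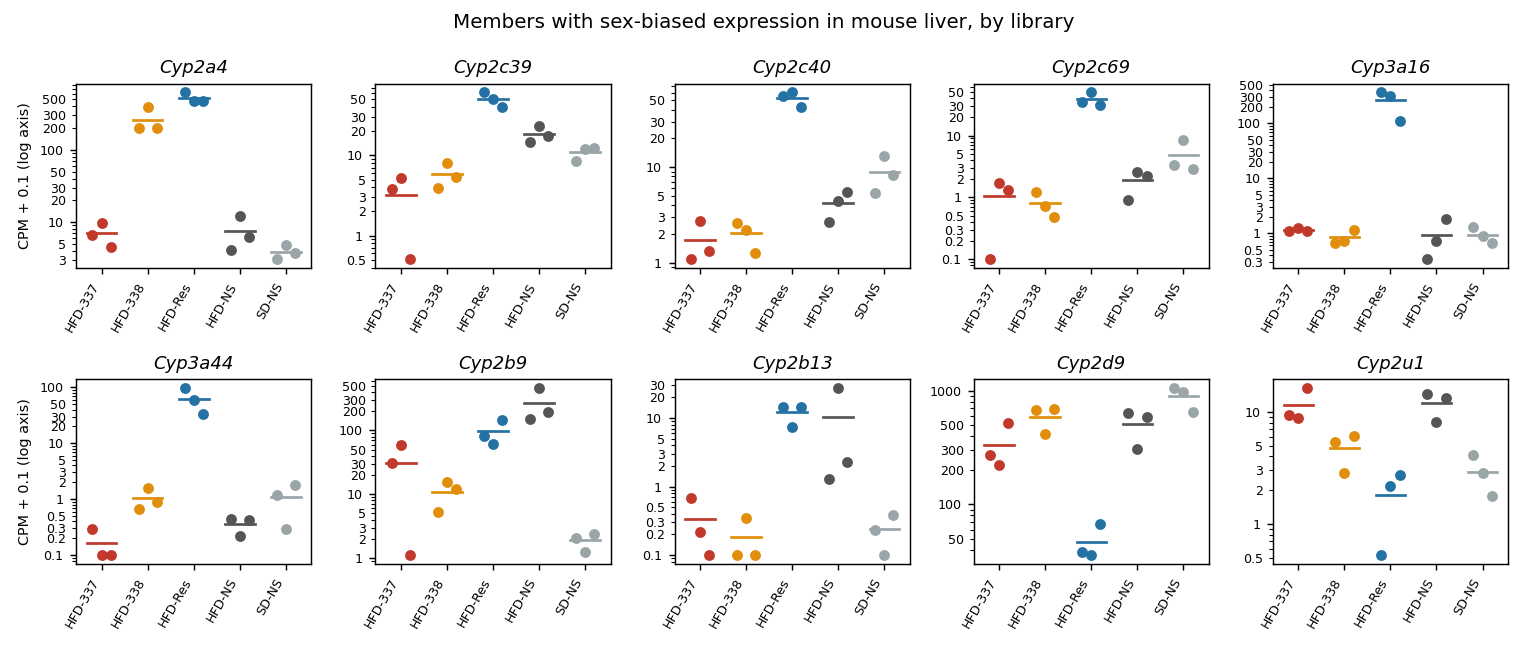
CPM in every library (points, log axis, 0.1 CPM added) and group mean (line) of members known as female-biased or male-biased in mice for all 5 groups. Cyp3a16, Cyp3a44, Cyp2c40 and Cyp2c69 are high in the 3 HFD-Res libraries, and Cyp2d9 is low there.

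Regulators of sex-biased liver expression changed in part in HFD-Res livers. Cux2, a female-biased transcription factor, was at 22.7, 23.5 and 12.9 CPM in HFD-Res, against 0, 0.621 and 0.527 CPM in HFD-NS (log2 change 5.60, SE 0.46, adjusted p = 2.84e-07), and it passed the count filter only through those HFD-Res libraries. Trim24, a corepressor in hepatocytes, rose (log2 change 1.62, adjusted p = 0.000593). Of the 12 growth hormone and sex-bias regulators 3 rose and 1 fell (background rises 6.22%, falls 6.74%). Bcl6, a repressor that is higher in males, was at 46.7, 55.7 and 68.6 CPM in HFD-Res, against 23.4, 65.3 and 37.1 CPM in HFD-NS and did not pass (log2 change 0.45, adjusted p = 0.505). The growth hormone receptor gene Ghr (log2 change -0.48, adjusted p = 0.034) was lost without HFD-Res replicate 29, 30 or 34 or HFD-NS replicate 12 or 16 (adjusted p = 0.0749 to 0.122), and Stat5a (log2 change 0.72, adjusted p = 0.0227) without HFD-Res replicate 29 or 34 or HFD-NS replicate 12 or 16 (adjusted p = 0.0533 to 0.109).

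No xenobiotic receptor passed the test in HFD-Res livers. By edgeR, 0 of 19 tested receptors and regulators were called (background rises 6.22%, falls 6.74%, also for the other lists here). At an unadjusted p under 0.05 there were 2 rises and 3 falls, and DESeq2 and limma-voom also called 0. CAR (Nr1i3) was at 216, 179 and 171 CPM in HFD-Res, against 134, 195 and 218 CPM in HFD-NS (log2 change 0.05, adjusted p = 0.897), PXR (Nr1i2) had a log2 change of 0.02 (adjusted p = 0.963) and Ahr of 0.32 (adjusted p = 0.397). Arnt, the partner of AhR, had one of 0.12 (adjusted p = 0.526). Of 17 genes for electron donors and haem supply, 0 rose and 4 fell by edgeR, DESeq2 and limma-voom, with 2 rises at an unadjusted p under 0.05. The falls included Cyb5a, the cytochrome b5 gene (log2 change -0.74, adjusted p = 0.000242), and its reductase gene Cyb5r3 (log2 change -0.57, adjusted p = 0.00266). Por was at 312, 185 and 243 CPM in HFD-Res, against 121, 202 and 203 CPM in HFD-NS (log2 change 0.49, adjusted p = 0.109). Alas1 was at 505, 244 and 282 CPM in HFD-Res, against 731, 444 and 457 CPM in HFD-NS (log2 change -0.67, adjusted p = 0.261). Hmox1, which breaks haem down, did not pass (log2 change -0.79, adjusted p = 0.0814). Of 6 tested other AhR targets, 2 rose and 0 fell by edgeR, DESeq2 and limma-voom, with 1 fall at an unadjusted p under 0.05. The rises were those of the glucuronosyltransferase genes Ugt1a6a (log2 change 0.55, adjusted p = 0.00107) and Ugt1a6b (log2 change 0.55, adjusted p = 0.00105), which share exons and so share reads. Among 20 other CAR and PXR targets, 6 rose and 4 fell, from the oestrogen sulfotransferase Sult1e1 (15.6, 18.2 and 36 CPM in HFD-Res, against 0, 0.621 and 2 CPM in HFD-NS; log2 change 4.67, adjusted p = 6.06e-05; 5.40 with limma-voom; 6.20 without HFD-NS replicate 16; it too passed the count filter only through HFD-Res) to the conjugate exporter Abcc3 (19.9, 16.1 and 14.7 CPM in HFD-Res, against 327, 370.4 and 328 CPM in HFD-NS; log2 change -4.35, adjusted p = 1.15e-13). Papss2, which makes the sulfate donor, also rose (log2 change 1.49, adjusted p = 3.63e-06), and the glutathione transferase gene Gstm1 fell (log2 change -1.17, adjusted p = 0.000522).

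Markers of hepatocyte zones changed as well. In HFD-Res against HFD-NS, 6.22% of all genes rose and 6.74% fell. Summed pericentral markers other than members were at 3901 to 4242 CPM in HFD-Res and 4639 to 5217 CPM in HFD-NS, with 3 rises and 2 falls of 9, and periportal markers at 2838 to 3349 CPM in HFD-Res and 3647 to 4583 CPM in HFD-NS, with 1 rise and 5 falls of 8. Their part in the falls of Cyp2e1 and Cyp1a2 was not tested. Bile duct markers summed to 74.1 to 85.6 CPM in HFD-Res and 47.3 to 63.1 CPM in HFD-NS, with 1 rise and 1 fall of 5. Of the Kupffer cell, sinusoidal endothelial and stellate cell markers, 5 in each list, edgeR called 0, also at an unadjusted p under 0.05, and so did DESeq2 and limma-voom.

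The widest called differences between HFD-NS and SD-NS livers were those of Cyp2b9, Cyp2b13, Cyp2a22 and, downward, Cyp3a11. Cyp2e1 was also higher under the high-fat diet label. In all, 13 of 41 members were called (31.7%; background 28.1%), with 8 rises (background 12%) and 5 falls (background 16.1%). The share called was close to that of all genes, but the changes were wider. Called changes of at least 2-fold were found in 19.5% of members and 6.7% of all genes. The median absolute log2 change was 0.59 over the members and 0.32 over all genes. The rises numbered 15 in a fit of the 2 groups alone, and the falls 3 with no filter on low counts and without HFD-NS replicate 12 or SD-NS replicate 8. The diet is known only from the labels.

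Cyp2b9, a female-biased member (chr7:25872834-25910085, mm39), was at 151, 464 and 192 CPM in HFD-NS, against 2, 1.17 and 2.25 CPM in SD-NS (log2 change 7.22, SE 1.17, adjusted p = 0.00129). HFD-NS replicate 13 was the highest of its group, and without it the log2 change was 6.57. Cyp2b13 was at 1.17, 27.4 and 2.21 CPM in HFD-NS, against 0.133, 0 and 0.281 CPM in SD-NS (log2 change 6.16, SE 1.81, adjusted p = 0.0272), again with replicate 13 far above the other HFD-NS libraries. Its SD-NS total was 2 counts, and the ratio of summed levels was 78.3 (95% exact interval 21.4 to 649.7; 252 against 2 counts). The log2 change was 3.60 without HFD-NS replicate 13 and 4.50 with limma-voom, and the call was lost with limma-voom or without SD-NS replicate 6, 7 or 8 (adjusted p = 0.0614 to 0.21). The CAR target Cyp2b10, at 2.92, 3.72 and 3.58 CPM in HFD-NS, against 3.73, 3.31 and 1.13 CPM in SD-NS, did not pass (log2 change 0.23, adjusted p = 0.73). The called Cyp2b genes were the pair whose promoter windows were 99.2% identical, while the windows of Cyp2b10 and Cyp2b9 were 71% identical. A link between promoter likeness and these changes was not tested.

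Cyp3a11 was at 1939, 1890.1 and 1328 CPM in HFD-NS, against 8174, 6675 and 6100.4 CPM in SD-NS (log2 change -2.02, SE 0.334, adjusted p = 0.000965), with every HFD-NS library below every SD-NS library. Cyp3a25 fell as well (log2 change -0.83, adjusted p = 0.0382), a call lost with no filter on low counts or without HFD-NS replicate 12 or 16 or SD-NS replicate 6 or 8 (adjusted p = 0.0785 to 0.117). Cyp2a22 was at 30.8, 86 and 54.9 CPM in HFD-NS, against 3.86, 4.28 and 3.66 CPM in SD-NS (log2 change 3.85, SE 0.867, adjusted p = 0.00816). Cyp2a5 was at 259.8, 586 and 639 CPM in HFD-NS, against 154, 160.2 and 189 CPM in SD-NS (log2 change 1.56, SE 0.359, adjusted p = 0.00802). Both Cyp2a genes were higher in every HFD-NS library than in any SD-NS library. Cyp2e1 was at 12104, 13388 and 13737 CPM in HFD-NS, against 7842, 8316 and 8040.2 CPM in SD-NS (log2 change 0.70, SE 0.164, adjusted p = 0.00388). Cyp2u1 was at 14.1, 7.95 and 13.2 CPM in HFD-NS, against 3.99, 2.72 and 1.69 CPM in SD-NS (log2 change 1.97, SE 0.407, adjusted p = 0.00221). For these genes too, all HFD-NS libraries were above all SD-NS libraries. Cyp2d40 (log2 change 0.59, adjusted p = 0.00513) and Cyp2c50 (log2 change 0.42, adjusted p = 0.0346) rose slightly, and the Cyp2c50 call was lost without HFD-NS replicate 13 or 16 or SD-NS replicate 6 or 8 (adjusted p = 0.0902 to 0.139). Cyp2j9 (log2 change -1.03, adjusted p = 0.0016) and Cyp2c23 (log2 change -0.84, adjusted p = 0.000443) fell. Cyp2c40 also fell (log2 change -1.06, adjusted p = 0.038), with overlapping groups, and was lost with no filter on low counts, with limma-voom, in a fit of the 2 groups alone or without HFD-NS replicate 12 or 13 or SD-NS replicate 7 or 8 (adjusted p = 0.0616 to 0.234). Cyp1a2, Cyp1b1, Cyp2a4, Cyp2a12, Cyp2c29, Cyp2c37, Cyp2c38, Cyp2c39, Cyp2c54, Cyp2c55, Cyp2c69, Cyp2c70, Cyp2d9, Cyp2d22, Cyp2f2, Cyp2j5, Cyp2r1, Cyp3a13, Cyp3a16, Cyp3a44 and Cyp3a59 did not pass, with log2 changes between -1.72 (Cyp3a44) and 1.36 (Cyp2c38).

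Of the 19 receptors and regulators, 4 rose and 3 fell in HFD-NS against SD-NS (background rises 12%, falls 16.1%, also for the other lists here). PXR (Nr1i2) was at 65.7, 89.5 and 75.1 CPM in HFD-NS, against 123, 107 and 105 CPM in SD-NS (log2 change -0.55, adjusted p = 0.00961; lost without SD-NS replicate 6 (adjusted p = 0.0504)), CAR (Nr1i3) had a log2 change of 0.06 (adjusted p = 0.829) and Ahr of 0.29 (adjusted p = 0.361). Arnt had a log2 change of -0.18 (adjusted p = 0.228). The liver transcription factor genes Foxa2 (log2 change 0.88, adjusted p = 0.00822) and Cebpa (log2 change 0.75, adjusted p = 0.000293) rose, and Ppara, the receptor that senses fatty acids, fell (log2 change -0.47, adjusted p = 0.0057). Of the electron donor and haem genes 8 rose and 1 fell. Por was at 121, 202 and 203 CPM in HFD-NS, against 353, 348 and 330.5 CPM in SD-NS (log2 change -0.97, adjusted p = 0.00163). Cyb5a, the cytochrome b5 gene, was at 1344, 1503 and 1525 CPM in HFD-NS, against 1030.1, 986 and 990.3 CPM in SD-NS (log2 change 0.54, adjusted p = 0.00224). Por thus fell while Cyb5a rose. Alas1 was at 731, 444 and 457 CPM in HFD-NS, against 272, 356 and 241 CPM in SD-NS (log2 change 0.91, adjusted p = 0.0748). Cyb5r3 (log2 change 0.94, adjusted p = 1.55e-05) and Hmox1 (log2 change 0.78, adjusted p = 0.0496) rose. The Hmox1 call was lost without HFD-NS replicate 12, 13 or 16 or SD-NS replicate 6, 7 or 8 (adjusted p = 0.0648 to 0.146). Pericentral markers summed to 4639 to 5217 CPM in HFD-NS and 2926 to 3473 CPM in SD-NS, and periportal markers to 3647 to 4583 CPM in HFD-NS and 6490.4 to 7103 CPM in SD-NS, and their part in the rise of Cyp2e1 was not tested.

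The sex-biased genes showed no single direction in HFD-NS against SD-NS. Of the female-biased list 2 rose and 1 fell of 9 tested, and of the male-biased list 1 rose and 1 fell of 7. Among all genes, 12% rose and 16.1% fell, and whether these short lists differ from that was not tested. The median log2 change was -1.11 over the male-biased genes and -0.02 over all genes. The fatty acid elongase gene Elovl3 was the male-biased gene that fell, at 321, 105 and 155 CPM in HFD-NS, against 909, 905 and 459.6 CPM in SD-NS (log2 change -1.97, adjusted p = 0.0194). The Elovl3 call was lost in a fit of the 2 groups alone or without HFD-NS replicate 13 or 16 or SD-NS replicate 6 or 7 (adjusted p = 0.0562 to 0.0738). Of the 12 growth hormone and sex-bias regulators 3 rose and 2 fell. Tox, a transcription factor gene (log2 change 1.34, adjusted p = 0.0177), and Stat5a, which carries the growth hormone signal (log2 change 0.72, adjusted p = 0.023), rose. The Tox call was lost without HFD-NS replicate 13 or 16 or SD-NS replicate 6 or 8 (adjusted p = 0.0504 to 0.0764). The Stat5a call was lost without HFD-NS replicate 13 or 16 or SD-NS replicate 7 (adjusted p = 0.0591 to 0.132). Bcl6 (log2 change -1.40, adjusted p = 0.0163) and the growth factor gene Igf1 (log2 change -0.44, adjusted p = 0.0317) fell. The Bcl6 call was lost in a fit of the 2 groups alone or without HFD-NS replicate 16 or SD-NS replicate 7 (adjusted p = 0.0521 to 0.0707). The Igf1 call was lost with no filter on low counts, in a fit of the 2 groups alone or without HFD-NS replicate 12 or 13 or SD-NS replicate 7 (adjusted p = 0.054 to 0.279).

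Targets of the same receptors differed in both directions. Of 6 tested other AhR targets 2 rose and 0 fell in HFD-NS against SD-NS, namely Xdh, the xanthine dehydrogenase gene (log2 change 0.80, adjusted p = 1.85e-05), and Nfe2l2, which encodes the stress regulator NRF2 (log2 change 0.31, adjusted p = 0.0389). The Nfe2l2 call was lost without HFD-NS replicate 12 or 13 or SD-NS replicate 6 or 8 (adjusted p = 0.0649 to 0.163). Of 20 other CAR and PXR targets 5 rose and 3 fell (background for both lists: rises 12%, falls 16.1%). The widest rises were those of the glutathione transferase gene Gstm3 (log2 change 1.64, adjusted p = 0.0233) and the retinal dehydrogenase gene Aldh1a1 (log2 change 1.29, adjusted p = 1.13e-07), and the widest falls those of the stress gene Gadd45b (log2 change -2.51, adjusted p = 3.57e-06) and the carboxylesterase gene Ces2a (log2 change -1.68, adjusted p = 1.26e-05). The Gstm3 call was lost without HFD-NS replicate 12 or 13 or SD-NS replicate 7 or 8 (adjusted p = 0.0539 to 0.0817).

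HFD-337 livers, where Stk25 RNA was lowest, had less of all 3 tested Cyp2b genes and of Cyp2c29, Cyp2c38 and Cyp2c39 than HFD-NS livers, and more Cyp2c23, Cyp2d13 and Cyp1a2. In all, 18 of 41 members were called (43.9%; background 47.2%), with 7 rises (background 24.4%) and 11 falls (background 22.8%). The share of members called was close to that of all genes. Called changes of at least 2-fold were found in 26.8% of members and 14.2% of all genes, with median absolute log2 changes of 0.47 and 0.45. The falls numbered 7 in a fit of the 2 groups alone and without HFD-NS replicate 13.

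Cyp2b10 was at 0, 0.576 and 0.406 CPM in HFD-337, against 2.92, 3.72 and 3.58 CPM in HFD-NS (log2 change -3.14, SE 0.596, adjusted p = 0.000278; -3.97 without HFD-337 replicate 26, the highest of its group). Cyp2b9 was at 30.9, 59.7 and 1.01 CPM in HFD-337, against 151, 464 and 192 CPM in HFD-NS (log2 change -3.07, SE 0.803, adjusted p = 0.00951). Its log2 change was -4.07 without HFD-337 replicate 26, -2.43 without HFD-NS replicate 13 and -3.79 with limma-voom, and the call was lost in a fit of the 2 groups alone (adjusted p = 0.105). Cyp2b13 was at 0.591, 0.115 and 0 CPM in HFD-337, against 1.17, 27.4 and 2.21 CPM in HFD-NS (log2 change -5.44, SE 1.59, adjusted p = 0.0161), which is -2.88 without HFD-NS replicate 13, -6.79 without HFD-337 replicate 23 and -4.58 with limma-voom, and lost with limma-voom or without HFD-337 replicate 26 or 27 (adjusted p = 0.0507 to 0.282). No HFD-337 library reached the lowest HFD-NS library for any of the 3.

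Cyp2c29, which CAR also induces, was at 137, 224 and 167 CPM in HFD-337, against 633, 674 and 757 CPM in HFD-NS (log2 change -1.96, SE 0.274, adjusted p = 8.7e-05). Cyp2c39 was at 3.74, 5.07 and 0.406 CPM in HFD-337, against 14.5, 23.3 and 17.5 CPM in HFD-NS (log2 change -2.44, SE 0.427, adjusted p = 0.0005; -3.13 without HFD-337 replicate 26), and Cyp2c38 at 63, 102 and 10.8 CPM in HFD-337, against 194, 236 and 195 CPM in HFD-NS (log2 change -1.80, SE 0.549, adjusted p = 0.0206). The Cyp2c38 value was -2.50 without HFD-337 replicate 26, and the call was lost in a fit of the 2 groups alone or without HFD-337 replicate 23 or HFD-NS replicate 13 (adjusted p = 0.0501 to 0.126). HFD-337 replicate 26 was the highest of its group for these genes, and still below every HFD-NS library. Cyp2c40 (log2 change -1.20, adjusted p = 0.0443; -1.89 without HFD-337 replicate 26) had overlapping groups and was lost with no filter on low counts, with limma-voom or without HFD-337 replicate 23 or 27 or HFD-NS replicate 13 or 16 (adjusted p = 0.0796 to 0.155).

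In the other direction, Cyp2c23 was at 369.8, 409 and 516 CPM in HFD-337, against 147, 141 and 189 CPM in HFD-NS (log2 change 1.44, SE 0.149, adjusted p = 7.57e-07). Cyp2d13 was at 415, 428 and 453 CPM in HFD-337, against 181, 162 and 209.8 CPM in HFD-NS (log2 change 1.23, SE 0.131, adjusted p = 6.51e-07). Cyp1a2 was at 311, 409 and 499 CPM in HFD-337, against 245, 268 and 304 CPM in HFD-NS (log2 change 0.58, SE 0.161, adjusted p = 0.00731), a call lost without HFD-337 replicate 27 (adjusted p = 0.0602). All HFD-337 libraries lay above all HFD-NS libraries for these 3 genes. Cyp2c54 (log2 change 1.04, adjusted p = 0.0344) was lost with no filter on low counts or without HFD-337 replicate 26 or 27 or HFD-NS replicate 12 or 13 (adjusted p = 0.0646 to 0.119), Cyp2c67 (log2 change 0.89, adjusted p = 0.0166) in a fit of the 2 groups alone or without HFD-337 replicate 27 or HFD-NS replicate 13 (adjusted p = 0.0572 to 0.0637), and Cyp2d22 (log2 change 0.40, adjusted p = 0.024) without HFD-337 replicate 26 or HFD-NS replicate 12 or 13 (adjusted p = 0.0944 to 0.136). Cyp2a12 rose slightly (log2 change 0.45, adjusted p = 0.00283). Cyp2e1 was at 6095, 10540.2 and 8174 CPM in HFD-337, against 12104, 13388 and 13737 CPM in HFD-NS (log2 change -0.66, SE 0.164, adjusted p = 0.00267) and fell, as did Cyp2j5 (log2 change -0.74, adjusted p = 0.000155). Cyp3a13 (log2 change -0.52, adjusted p = 0.00547) was lost without HFD-NS replicate 13 (adjusted p = 0.0591), and Cyp3a59 (log2 change -1.14, adjusted p = 0.0454), whose groups overlapped, with no filter on low counts, in a fit of the 2 groups alone or without HFD-337 replicate 26 or 27 or HFD-NS replicate 13 or 16 (adjusted p = 0.0563 to 0.161). Cyp3a11, at 1299, 1836 and 668 CPM in HFD-337, against 1939, 1890.1 and 1328 CPM in HFD-NS, did not pass (log2 change -0.44, adjusted p = 0.289). Cyp1b1, Cyp2a4, Cyp2a5, Cyp2a22, Cyp2c37, Cyp2c50, Cyp2c55, Cyp2c69, Cyp2c70, Cyp2d9, Cyp2f2, Cyp2r1, Cyp2u1, Cyp3a16, Cyp3a25 and Cyp3a44 did not pass, with log2 changes between -1.99 (Cyp3a44) and 0.37 (Cyp2c70).

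**Figure D3:**
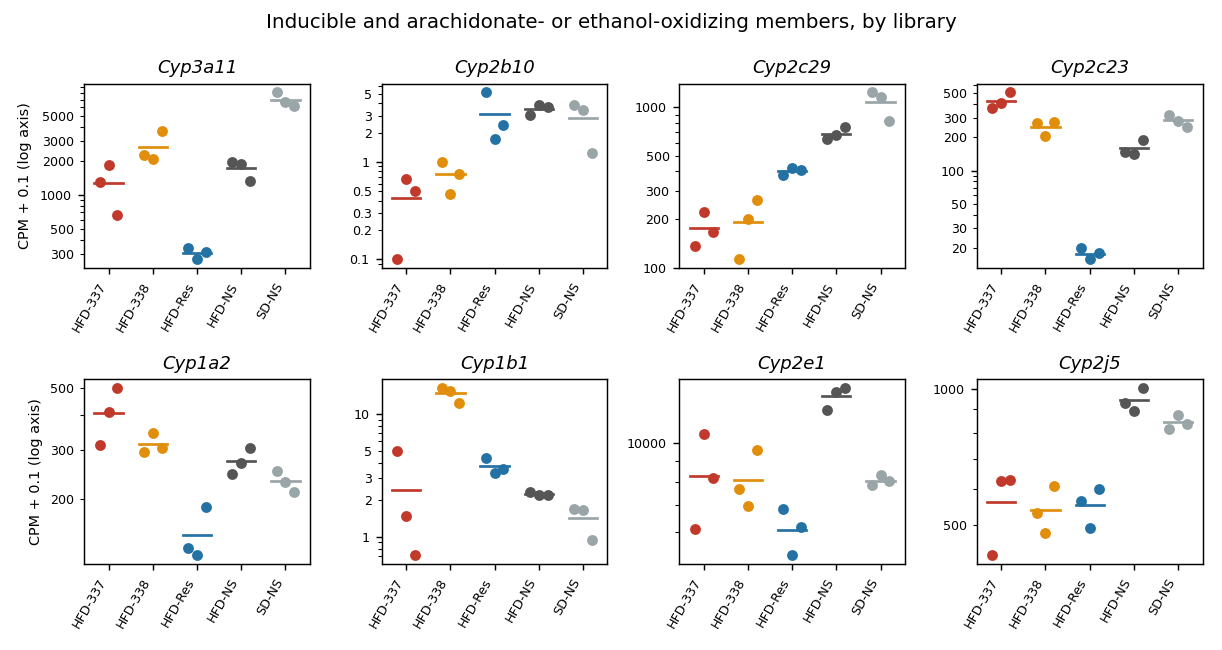
CPM in every library (points, log axis, 0.1 CPM added) and group mean (line) of further named members for all 5 groups. Cyp2c29 and Cyp2b10 are low in HFD-337 and HFD-338, Cyp2c23 is low in HFD-Res, Cyp3a11 is highest in SD-NS and Cyp1b1 is highest in HFD-338.

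Por, the electron donor, also fell in HFD-337 livers. It was at 82.1, 99.7 and 88.9 CPM in HFD-337, against 121, 202 and 203 CPM in HFD-NS (log2 change -0.96, adjusted p = 0.000891), and of the 17 electron donor and haem genes 4 rose and 6 fell. The haem synthesis genes Ppox (log2 change 0.91, adjusted p = 5.77e-05) and Alad (log2 change 0.81, adjusted p = 7.07e-06) rose, and Hmox1 fell (log2 change -1.36, adjusted p = 0.00128). Alas1 had a log2 change of -0.23 (adjusted p = 0.604), CAR (Nr1i3) of 0.36 (adjusted p = 0.0911), PXR (Nr1i2) of 0.10 (adjusted p = 0.599), Ahr of -0.19 (adjusted p = 0.502) and Cyb5a of 0.15 (adjusted p = 0.318). Of 19 receptors and regulators 4 rose and 4 fell (background rises 24.4%, falls 22.8%, also for the other lists here). Foxa3 (log2 change 0.71, adjusted p = 0.0233) and Foxa2 (log2 change 0.60, adjusted p = 0.0241) rose, as did Arnt (log2 change 0.30, adjusted p = 0.0281). The Foxa3 call was lost with no filter on low counts or without HFD-337 replicate 27 or HFD-NS replicate 13 or 16 (adjusted p = 0.0544 to 0.109). The Foxa2 call was lost with no filter on low counts or without HFD-337 replicate 23 or 27 or HFD-NS replicate 12 or 13 (adjusted p = 0.052 to 0.0957). The Arnt call was lost with no filter on low counts, with DESeq2, in a fit of the 2 groups alone or without HFD-337 replicate 23 or 27 or HFD-NS replicate 13 or 16 (adjusted p = 0.0612 to 0.162). Ppara (log2 change -1.14, adjusted p = 4.72e-07) and Hnf4a, a liver transcription factor gene (log2 change -0.74, adjusted p = 2.15e-05), fell. Of the 20 other CAR and PXR targets, 0 rose and 11 fell by edgeR, with no rise at an unadjusted p under 0.05 or by DESeq2 or limma-voom either, and with a median log2 change of -0.55 where all genes had 0.03. They included Abcb1a, which encodes the drug exporter P-glycoprotein (log2 change -1.30, adjusted p = 0.0278; -1.89 without HFD-337 replicate 26), and Abcc3 (log2 change -1.23, adjusted p = 2.5e-07). The Abcb1a call was lost with limma-voom, in a fit of the 2 groups alone or without HFD-337 replicate 23 or 27 or HFD-NS replicate 13 (adjusted p = 0.0725 to 0.21). Of 6 tested other AhR targets 1 rose and 4 fell. Xdh rose (log2 change 0.32, adjusted p = 0.0134), and the AhR-induced Tiparp (log2 change -0.86, adjusted p = 0.00197) and the quinone reductase gene Nqo1 (log2 change -0.67, adjusted p = 0.0457) fell. The Xdh call was lost in a fit of the 2 groups alone or without HFD-337 replicate 27 or HFD-NS replicate 12 (adjusted p = 0.0511 to 0.101). The Nqo1 call was lost with limma-voom, in a fit of the 2 groups alone or without HFD-337 replicate 23 or 27 or HFD-NS replicate 13 (adjusted p = 0.0775 to 0.236).

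Of the female-biased list, 0 rose and 4 fell of 9 tested in HFD-337 (background rises 24.4%, falls 22.8%), and these were Cyp2b9, Cyp2b13, Cyp2c39 and Cyp2c40. The falls numbered 4 by DESeq2 and 2 by limma-voom, and no rise was found by either or at an unadjusted p under 0.05. Of the male-biased list, 2 rose and 0 fell of 7 by edgeR, DESeq2 and limma-voom alike, and none fell at an unadjusted p under 0.05. Hsd3b5, a male-biased steroid dehydrogenase gene, was at 68.7, 42.3 and 390.5 CPM in HFD-337, against 2.57, 0.869 and 2.53 CPM in HFD-NS (log2 change 6.34, adjusted p = 0.000614; 4.73 without HFD-337 replicate 27). Mup20 was at 10212, 7864 and 23602 CPM in HFD-337, against 7880.3, 2291 and 3587 CPM in HFD-NS (log2 change 1.60, adjusted p = 0.0227; 2.24 without HFD-NS replicate 12). The Mup20 call was lost in a fit of the 2 groups alone or without HFD-337 replicate 27 or HFD-NS replicate 13 or 16 (adjusted p = 0.0713 to 0.107). Every HFD-337 library was above every HFD-NS library for Hsd3b5, while for Mup20 the lowest HFD-337 library lay just below the highest HFD-NS library. Of the 12 growth hormone and sex-bias regulators 2 rose and 5 fell. Cish, which STAT5 induces (log2 change 2.15, adjusted p = 0.0094), and Igf1 (log2 change 0.51, adjusted p = 0.00866) rose, and Tox (log2 change -1.37, adjusted p = 0.00755; -2.07 without HFD-337 replicate 26) and Ghr (log2 change -0.87, adjusted p = 7.96e-05) fell. The Cish call was lost in a fit of the 2 groups alone (adjusted p = 0.0799). The Igf1 call was lost without HFD-337 replicate 27 or HFD-NS replicate 13 (adjusted p = 0.0505 to 0.0623). The Tox call was lost in a fit of the 2 groups alone (adjusted p = 0.0528).

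Markers of other cells and of hepatocyte zones differed as well in HFD-337. Pericentral markers summed to 3206 to 4152 CPM in HFD-337 and 4639 to 5217 CPM in HFD-NS, with 2 rises and 2 falls of 9, and periportal markers to 1674 to 3754 CPM in HFD-337 and 3647 to 4583 CPM in HFD-NS, with 1 rise and 2 falls of 8. Their part in the fall of Cyp2e1 was not tested. Bile duct markers summed to 61.3 to 239 CPM in HFD-337 and 47.3 to 63.1 CPM in HFD-NS, with 2 rises and 0 falls of 5 by edgeR and DESeq2 and no call by limma-voom. At an unadjusted p under 0.05, 4 rose and 0 fell. Kupffer cell markers summed to 34.9 to 77.6 CPM in HFD-337 and 99.9 to 134 CPM in HFD-NS, and 0 of 5 were called by edgeR or limma-voom or stood at an unadjusted p under 0.05, while DESeq2 called 1 fall. Sinusoidal endothelial markers summed to 57.5 to 75.4 CPM in HFD-337 and 151 to 187 CPM in HFD-NS, with 0 rises and 5 falls of 5, and stellate cell markers to 106 to 177 CPM in HFD-337 and 289 to 349.5 CPM in HFD-NS, with 0 rises and 4 falls of 5. Among all genes, 24.4% rose and 22.8% fell. None of these markers was at 0 in a whole group, and their part in the members' changes was not tested.

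HFD-338 livers also had less of the Cyp2b genes and of Cyp2c29, Cyp2c38 and Cyp2c39 than HFD-NS livers, but much more Cyp2a4 and Cyp1b1. In all, 21 of 41 members were called (51.2%; background 36.8%), with 5 rises (background 18.9%) and 16 falls (background 17.9%). The rises numbered 3 without HFD-338 replicate 19 or HFD-NS replicate 13. Called changes of at least 2-fold were found in 34.1% of members and 13.5% of all genes, with median absolute log2 changes of 0.80 and 0.32. The 3 treated groups are all set against the same HFD-NS libraries, so their shared directions do not rest on separate controls.

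Cyp2a4 was at 198, 386 and 197 CPM in HFD-338, against 3.97, 11.9 and 6.11 CPM in HFD-NS (log2 change 5.16, SE 0.419, adjusted p = 6.04e-06), with all 3 HFD-338 libraries far above HFD-NS. Its near-copy Cyp2a5 was at 846, 1007 and 927 CPM in HFD-338, against 259.8, 586 and 639 CPM in HFD-NS and did not pass (log2 change 0.90, adjusted p = 0.064), and the female-biased Cyp3a16 was at 0.57, 0.618 and 1.05 CPM in HFD-338, against 0.234, 0.621 and 1.69 CPM in HFD-NS (log2 change -0.25, adjusted p = 0.888). Cyp1b1, a member that is typical of mesenchymal and vascular cells, was at 16.3, 15.5 and 12.3 CPM in HFD-338, against 2.22, 2.11 and 2.11 CPM in HFD-NS (log2 change 2.77, SE 0.344, adjusted p = 9.28e-06). Stellate cell markers summed to 484 to 815 CPM in HFD-338 and 289 to 349.5 CPM in HFD-NS, but only 1 of 5 rose, 0 fell and their median log2 change was 0.18. Bile duct markers summed to 579 to 732 CPM in HFD-338 and 47.3 to 63.1 CPM in HFD-NS, with 5 rises of 5 and a median log2 change of 3.74. Sinusoidal endothelial markers summed to 61.3 to 108 CPM in HFD-338 and 151 to 187 CPM in HFD-NS, with 5 falls of 5. Kupffer cell markers summed to 59.8 to 292 CPM in HFD-338 and 99.9 to 134 CPM in HFD-NS, and 0 of 5 were called by edgeR, DESeq2 or limma-voom or stood at an unadjusted p under 0.05. The bile duct markers Krt7 and Krt19 passed the count filter only through HFD-338 libraries. Among all genes, 18.9% rose and 17.9% fell. No marker of these lists was at 0 in a whole group, and their part in the members' changes was not tested.

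Cyp2b9 was at 5.13, 15.5 and 11.8 CPM in HFD-338, against 151, 464 and 192 CPM in HFD-NS (log2 change -4.65, SE 0.888, adjusted p = 0.00223; -4.01 without HFD-NS replicate 13). Cyp2b13 had 2 counts in all of HFD-338, a ratio to HFD-NS of 0.00845 (95% exact interval 0.00102 to 0.0309; 2 against 252 counts), and its fall (log2 change -6.66, adjusted p = 0.0109; -4.11 without HFD-NS replicate 13, -9.09 without HFD-338 replicate 18, -5.57 with limma-voom) was lost with limma-voom (adjusted p = 0.14). Cyp2b10 was at 0.912, 0.371 and 0.654 CPM in HFD-338, against 2.92, 3.72 and 3.58 CPM in HFD-NS (log2 change -2.35, SE 0.501, adjusted p = 0.00117). Each Cyp2b gene was lower in every HFD-338 library than in any HFD-NS library. Cyp2c38 was at 13.7, 30.3 and 27.4 CPM in HFD-338, against 194, 236 and 195 CPM in HFD-NS (log2 change -3.14, SE 0.587, adjusted p = 0.00194). Cyp2c29 was at 113, 203 and 265 CPM in HFD-338, against 633, 674 and 757 CPM in HFD-NS (log2 change -1.83, SE 0.272, adjusted p = 0.000239). Cyp2c39 was at 3.88, 7.92 and 5.24 CPM in HFD-338, against 14.5, 23.3 and 17.5 CPM in HFD-NS (log2 change -1.70, SE 0.373, adjusted p = 0.00352). The HFD-338 libraries lay below all HFD-NS libraries for these Cyp2c genes as well.

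Further falls in HFD-338 were those of Cyp2j9 (log2 change -1.90, adjusted p = 1.96e-05), Cyp2u1 (log2 change -1.34, adjusted p = 0.0082), Cyp2d40 (log2 change -1.32, adjusted p = 1.95e-06), Cyp2c37 (log2 change -1.27, adjusted p = 0.00765), Cyp2c68 (log2 change -0.86, adjusted p = 0.000192), Cyp2j5 (log2 change -0.80, adjusted p = 0.000138) and Cyp2d26 (log2 change -0.73, adjusted p = 0.000202). Cyp2e1 was at 7677, 6967 and 9614 CPM in HFD-338, against 12104, 13388 and 13737 CPM in HFD-NS (log2 change -0.69, SE 0.164, adjusted p = 0.00268). Summed pericentral markers were at 2105 to 3247 CPM in HFD-338 and 4639 to 5217 CPM in HFD-NS, with 2 rises and 4 falls of 9, and periportal markers at 3094 to 3929.8 CPM in HFD-338 and 3647 to 4583 CPM in HFD-NS, with 1 rise and 2 falls of 8 (background for both: rises 18.9%, falls 17.9%). Their part in the fall of Cyp2e1 was not tested. Cyp2f2 (log2 change -0.91, adjusted p = 0.0309) was lost with no filter on low counts or without HFD-338 replicate 17, 18 or 19 or HFD-NS replicate 12 or 16 (adjusted p = 0.0526 to 0.121), and Cyp2a22 (log2 change -2.08, adjusted p = 0.0354) without HFD-338 replicate 17, 18 or 19 or HFD-NS replicate 13 or 16 (adjusted p = 0.0665 to 0.11). Cyp2c23 was at 269, 206 and 277 CPM in HFD-338, against 147, 141 and 189 CPM in HFD-NS and rose (log2 change 0.65, SE 0.147, adjusted p = 0.00209). Cyp2j6 (log2 change 0.37, adjusted p = 0.0217) was lost without HFD-338 replicate 17 or 19 or HFD-NS replicate 12 or 13 (adjusted p = 0.0627 to 0.0863), and Cyp2c55 (log2 change 1.45, adjusted p = 0.0481), at a low level with overlapping groups, with no filter on low counts, with DESeq2, with limma-voom or without HFD-338 replicate 18 or 19 or HFD-NS replicate 12 or 13 (adjusted p = 0.0513 to 0.162). Cyp3a11 was at 2275, 2089 and 3681 CPM in HFD-338, against 1939, 1890.1 and 1328 CPM in HFD-NS and did not pass (log2 change 0.64, adjusted p = 0.145). Cyp1a2, Cyp2a12, Cyp2c40, Cyp2c50, Cyp2c54, Cyp2c69, Cyp2c70, Cyp2d9, Cyp2d22, Cyp2r1, Cyp3a13, Cyp3a25, Cyp3a44 and Cyp3a59 did not pass, with log2 changes between -1.28 (Cyp2c69) and 1.74 (Cyp3a44).

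CAR, Por and Alas1 RNA fell in HFD-338 livers. Nr1i3 was at 98.2, 111 and 116 CPM in HFD-338, against 134, 195 and 218 CPM in HFD-NS (log2 change -0.75, adjusted p = 0.00259), Alas1 at 244, 184 and 182 CPM in HFD-338, against 731, 444 and 457 CPM in HFD-NS (log2 change -1.42, adjusted p = 0.00841) and Por at 87.9, 95.1 and 100.3 CPM in HFD-338, against 121, 202 and 203 CPM in HFD-NS (log2 change -0.89, adjusted p = 0.00206). In counts, 1 of 19 receptors and regulators rose and 9 fell, and 1 of 17 electron donor and haem genes rose and 10 fell (background rises 18.9%, falls 17.9%, also for the other lists here). Nfe2l2 was the regulator that rose (log2 change 0.29, adjusted p = 0.0409), and Foxa2 (log2 change -0.90, adjusted p = 0.0039) and Ppara (log2 change -0.87, adjusted p = 1.72e-05) had the widest falls. The Nfe2l2 call was lost with no filter on low counts or without HFD-338 replicate 17, 18 or 19 or HFD-NS replicate 13 or 16 (adjusted p = 0.0668 to 0.146). Blvrb, a biliverdin reductase gene, was the haem gene that rose (log2 change 0.47, adjusted p = 0.00565), and Cyb5a fell (log2 change -0.57, adjusted p = 0.00092). PXR (Nr1i2) had a log2 change of -0.11 (adjusted p = 0.588), Ahr of 0.35 (adjusted p = 0.221), Arnt of 0.16 (adjusted p = 0.255) and Hmox1 of 0.02 (adjusted p = 0.964). Of the 20 other CAR and PXR targets 4 rose and 7 fell. The glutathione transferase genes Gsta1 (log2 change 3.47, adjusted p = 0.000111) and Gstm3 (log2 change 3.07, adjusted p = 9.64e-05) rose most, and the uptake transporter gene Slco1a4 (log2 change -1.17, adjusted p = 0.0492) and Ces2a (log2 change -1.13, adjusted p = 0.000245) fell most. The Slco1a4 call was lost with RLE size factors, with no filter on low counts or without HFD-338 replicate 17, 18 or 19 or HFD-NS replicate 12, 13 or 16 (adjusted p = 0.055 to 0.136). Of 6 tested other AhR targets 2 rose and 2 fell. Nqo1 rose (log2 change 1.71, adjusted p = 1.85e-05), as did Nfe2l2, which that list also holds, and Ugt1a6a (log2 change -0.66, adjusted p = 8.21e-05) and Ugt1a6b (log2 change -0.68, adjusted p = 6.2e-05), which share reads, fell.

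Of the female-biased list, 1 rose and 3 fell of 9 tested in HFD-338 (background rises 18.9%, falls 17.9%), namely Cyp2a4 upward and Cyp2b9, Cyp2b13 and Cyp2c39 downward. Of the male-biased list 1 rose and 2 fell of 7. Mup20 was at 30705, 18505 and 35599.8 CPM in HFD-338, against 7880.3, 2291 and 3587 CPM in HFD-NS (log2 change 2.62, adjusted p = 0.00256; 3.26 without HFD-NS replicate 12), with no overlap between the groups. Elovl3 was at 68.2, 15.2 and 38.7 CPM in HFD-338, against 321, 105 and 155 CPM in HFD-NS (log2 change -2.25, adjusted p = 0.00911; -2.85 without HFD-338 replicate 17), and Cyp2u1 was the other fall. The Elovl3 call was lost in a fit of the 2 groups alone (adjusted p = 0.0767). Of the 12 growth hormone and sex-bias regulators 0 rose, also at an unadjusted p under 0.05 and by DESeq2 and limma-voom, and 2 fell, which were Tox (log2 change -1.51, adjusted p = 0.0048) and Ghr (log2 change -0.89, adjusted p = 0.000109).

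**Figure D4:**
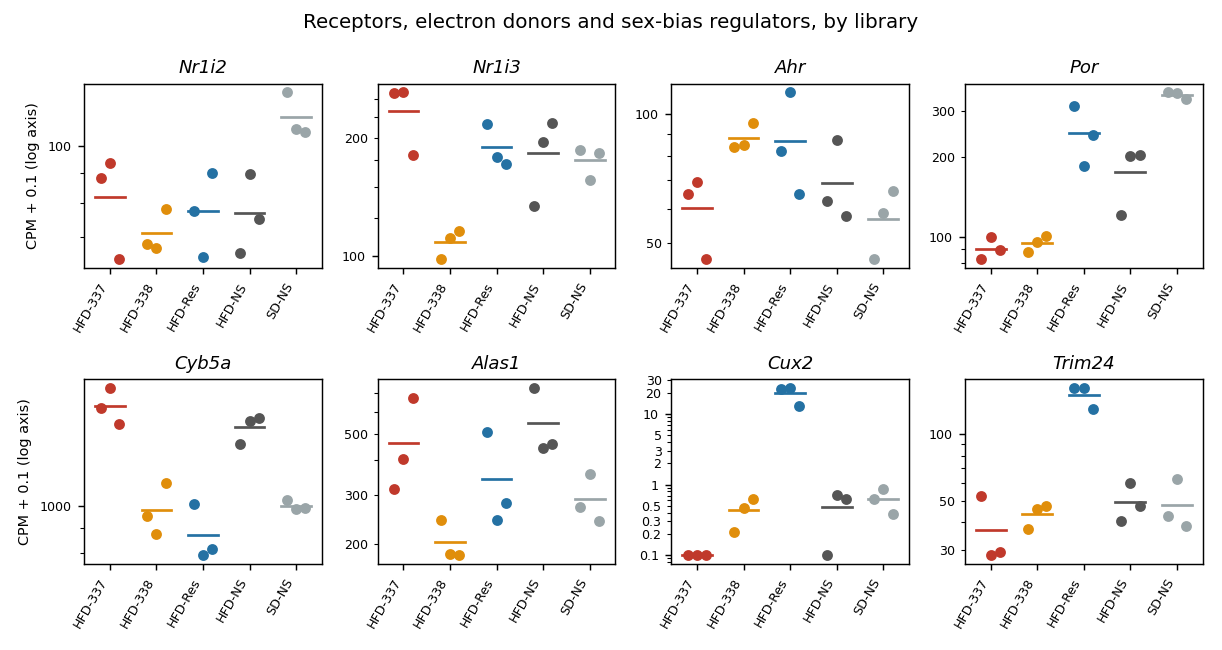
CPM in every library (points, log axis, 0.1 CPM added) and group mean (line) of receptors, electron donors, haem genes and sex-bias regulators for all 5 groups. Cux2 is highest in HFD-Res, and Por is lower in the HFD-337 and HFD-338 libraries than in HFD-NS.

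The treated groups were also compared directly. HFD-337 and HFD-338 differed in 19 of 41 members (46.3%; background 58.4%), with 14 higher in HFD-337 (background 28.8%) and 5 lower (background 29.6%). The widest gap was that of Cyp2a4, at 6.5, 9.68 and 4.46 CPM in HFD-337, against 198, 386 and 197 CPM in HFD-338 (log2 change -5.17, SE 0.431, adjusted p = 2.33e-06). Cyp1b1 was at 4.92, 1.38 and 0.609 CPM in HFD-337, against 16.3, 15.5 and 12.3 CPM in HFD-338 (log2 change -2.73, SE 0.365, adjusted p = 6.99e-06; -3.73 without HFD-337 replicate 23). Cyp3a11 was lower in HFD-337 (log2 change -1.08, adjusted p = 0.0134), a call lost in a fit of the 2 groups alone or without HFD-338 replicate 19 (adjusted p = 0.0534 to 0.0631). In Cyp2d, 5 of 6 tested members were higher in HFD-337, led by Cyp2d13 (log2 change 1.44, adjusted p = 9.14e-08) and Cyp2d40 (log2 change 1.23, adjusted p = 1.64e-06), and so were 5 of 13 Cyp2c members, among them Cyp2c54 (log2 change 1.67, adjusted p = 0.00247) and Cyp2c67 (log2 change 1.12, adjusted p = 0.00366). By edgeR 0 of 3 tested Cyp2b genes differed between them, also at an unadjusted p under 0.05, and DESeq2 and limma-voom called 0 as well, with log2 changes of 1.58 for Cyp2b9 and -0.79 for Cyp2b10 (SE 0.885 and 0.771).

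HFD-337 differed from HFD-Res in 31 of 41 members (75.6%; background 47.6%), and HFD-338 from HFD-Res in 33 (80.5%; background 43.1%). Cyp2b13, Cyp3a16 and Cyp3a44, counted here, were tested only through the HFD-Res libraries. Of the other 38 members, 13 were higher and 15 lower in HFD-337 than in HFD-Res (background 24.4% and 23.4% under the same exclusion). In HFD-338, 13 of the 38 were higher than in HFD-Res and 17 lower (background 19.9% and 21.7%). Cyp3a44 had 1 count in all of HFD-337, a ratio to HFD-Res of 0.000911 (95% exact interval 2.3e-05 to 0.00509; 1 against 934 counts), and was at 0.57, 1.48 and 0.785 CPM in HFD-338, against 97.8, 58 and 32.7 CPM in HFD-Res (log2 change -6.02, adjusted p = 8.12e-07). Cyp3a16 was at 0.984, 1.15 and 1.01 CPM in HFD-337 and 0.57, 0.618 and 1.05 CPM in HFD-338, against 374, 313 and 111 CPM in HFD-Res (log2 changes -7.93 and -8.46). Cyp2c40 differed by -4.87 and -4.74 (-5.56 for HFD-337 without its replicate 26), and Cyp2c69 by -5.17 and -5.68 (-5.96 for HFD-337 without its replicate 26). The levels of these 4 genes in HFD-Res were thus above those of both numbered groups, and every such difference was called. The 4 were picked after their values were seen, so these calls describe them and lend no further support.

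Both HFD-338 and HFD-Res had much Cyp2a4, at 198, 386 and 197 CPM in HFD-338, against 632, 481 and 471 CPM in HFD-Res. HFD-338 was the lower (log2 change -1.02, SE 0.33, adjusted p = 0.0282), a call lost without HFD-338 replicate 17 or 19 or HFD-Res replicate 29 (adjusted p = 0.0852 to 0.0995). On the side of higher levels, Cyp2c23 exceeded HFD-Res by 4.60 in HFD-337 livers and by 3.82 in HFD-338 livers on the log2 scale, Cyp2d9 by 2.82 and 3.65, and Cyp3a11 by 2.05 and 3.13, all called. Cyp2r1 was lower than in HFD-Res in both, with log2 changes of -1.05 (HFD-337, adjusted p = 0.00127) and -0.79 (HFD-338, adjusted p = 0.00815, lost without HFD-338 replicate 17 (adjusted p = 0.0507)).

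**Figure D5:**
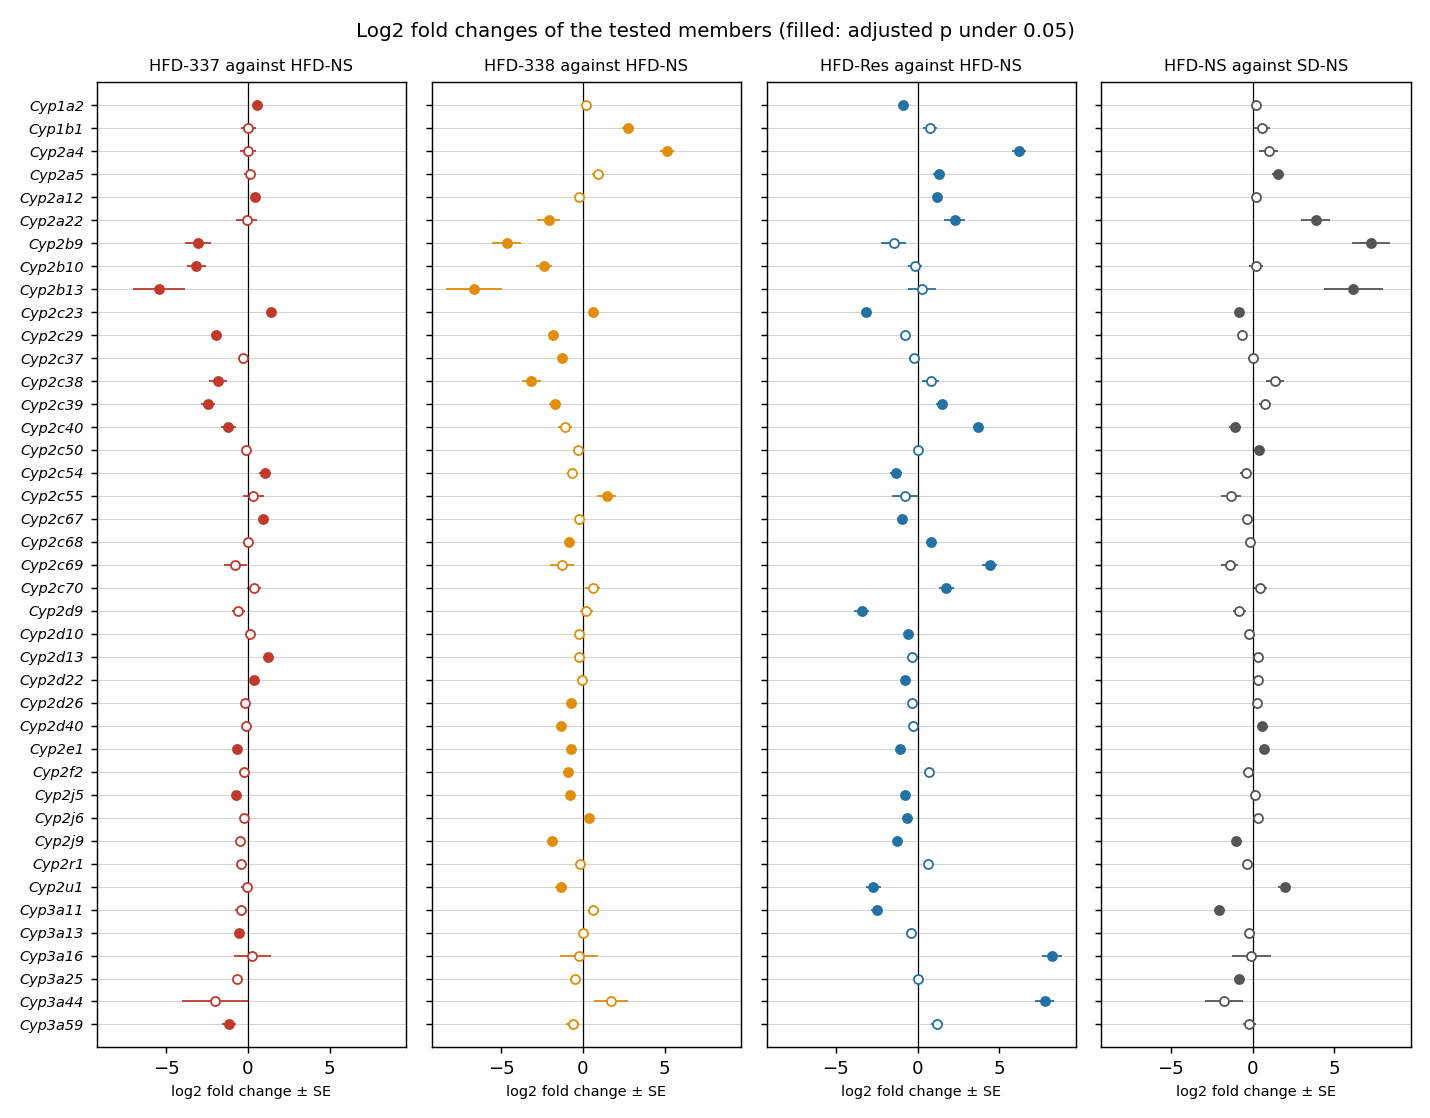
Fitted log2 fold change (points) with its SE (bars) of the 41 tested members in each treated group against HFD-NS and in HFD-NS against SD-NS, with filled points for calls at an adjusted p under 0.05. Cyp2b9 and Cyp2b13 lie far to the left in HFD-337 and HFD-338 and far to the right in HFD-NS against SD-NS, while Cyp3a16 and Cyp3a44 lie far to the right in HFD-Res.

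The order of the groups differed from member to member. Cyp2b9 was at 81.6, 60.3 and 146 CPM in HFD-Res, below all HFD-NS libraries given above and above all HFD-337, HFD-338 and SD-NS libraries, so it averaged highest in HFD-NS and lowest in SD-NS. The nearest libraries were close, at 146 CPM in HFD-Res against 151 CPM in HFD-NS, and 60.3 CPM in HFD-Res against 59.7 CPM in HFD-337. Neither of these 2 comparisons was called for Cyp2b9 by edgeR (adjusted p = 0.252 and 0.122). Cyp2u1 was at 9.25, 8.76 and 16.2 CPM in HFD-337, 5.24, 2.72 and 6.02 CPM in HFD-338, 0.428, 2.07 and 2.62 CPM in HFD-Res, 14.1, 7.95 and 13.2 CPM in HFD-NS and 3.99, 2.72 and 1.69 CPM in SD-NS, so HFD-337 and HFD-NS were the high groups and HFD-Res and SD-NS overlapped at the low end. Cyp2f2 spread widely within HFD-337, at 273, 470.4 and 828 CPM, with 361, 272 and 347 in HFD-338 and 702, 539 and 600.2 in HFD-NS.

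The 17 untested members were at or near 0. Cyp2b19, Cyp2b23, Cyp2c66, Cyp2j11, Cyp2j12 and Cyp2w1 had no count in any library. Cyp1a1, the AhR target that is low in liver without an inducer, had 58 counts over all libraries and at most 1.61 CPM in a library. Cyp2d12 reached 2.09 CPM. The others were Cyp2c65, Cyp2d11, Cyp2d34, Cyp2g1, Cyp2j8, Cyp2j13, Cyp2s1, Cyp2t4 and Cyp3a57, with maxima from 0.105 to 1.93 CPM. With 3 counts over the whole group as the least that could be told from none, the limit was 0.161 CPM in HFD-337 and 0.122 CPM in HFD-338, counting error only.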

How the data were processed

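Mouse liver RNA was sequenced in 15 libraries after poly(A) selection, per the labels' protocols. Trimming, mapping and counting tools in the submitters' processing notes are featureCounts 2.0.1, STAR 2.7.10b, Trim Galore 0.6.10 and Bowtie 1.3.1, and the build is mm39. The deposited counts are, per the file headers, whole reads over exons summed per gene, without strand, with a read counted for every gene it overlaps and with reads mapped to several places left out. Groups came from the sample labels. The counts of the whole table were filtered with filterByExpr, scaled by TMM and fitted in 1 robust quasi-likelihood model of all 15 libraries (edgeR 4.0.16, R 4.3.3), and p-values were Benjamini-Hochberg adjusted over 13189 genes. The common biological coefficient of variation was 0.134. The procedure was tested on simulated data. A fold change of a gene with few counts depends on edgeR's prior count, so for group totals of 1 to 3 counts a ratio with a 95% exact interval is given. Intervals and limits cover counting error only. TPM was recomputed from the counts and exon lengths. A deposited TPM table was not used here, because its column names do not tie each column to a library. Exons of Cyp2d11 overlap Mir7684 over 3.77% of their length, the 1 such overlap among members. Promoters, motifs and shared stretches were read from RefSeq and reference transcripts in Python 3.11.15 with Biopython 1.88.

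The members, gene lists and tests were chosen with earlier results of these data known. By the naming rule, a fixed set of members and regulators is named whatever the result, with any other member called at a mean of at least 1 CPM and up to 2 called genes per list and direction, in the 3 comparisons with HFD-NS and in HFD-NS against SD-NS. Those named between treated groups were picked after their values were seen. Cyp2c44, in the fixed set, is an older symbol of Cyp2c23 (RefSeq) and is given under that name. The genes of the Y chromosome and Xist were added after the data had been seen. Alternatives were DESeq2 1.42.0, limma-voom (limma 3.58.1, quality weights), RLE size factors, a fit of the 2 groups alone, no filter on low counts and leaving out each library in turn.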

Additional observations from a re-analysis of the deposited data

How the results depend on the processing

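Of 159 called comparisons of members, 109 were called under every alternative run, and none reversed. The counts of members called stayed within 1.5 times the value reported, apart from these. Rises in HFD-NS against SD-NS went to 15 in a fit of the 2 groups alone, and falls to 3 with no filter on low counts. Falls in HFD-337 against HFD-NS went to 7 in a fit of the 2 groups alone. The causes were not tested. Leaving out 1 library at a time gave 6 to 8 rises and 3 to 5 falls in HFD-NS against SD-NS, 5 to 8 rises and 7 to 12 falls in HFD-337 against HFD-NS, 3 to 5 rises and 14 to 17 falls in HFD-338 against HFD-NS, and 9 to 10 rises and 11 to 14 falls in HFD-Res against HFD-NS. Calls between treated groups came to 16 to 22 for HFD-337 against HFD-338, 26 to 32 for HFD-337 against HFD-Res and 23 to 32 for HFD-338 against HFD-Res. The low counts came from leaving out HFD-NS replicate 12 or SD-NS replicate 8 (falls against SD-NS), HFD-NS replicate 13 (falls in HFD-337, and rises in HFD-338) and HFD-338 replicate 19 (rises in HFD-338). No paired analysis was possible because the labels give the groups no replicate number in common. With 3 libraries a group, changes of members with few counts in a group, such as Cyp2b13 and Cyp2c55, are the least certain, also where they are wide.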
